A study of Mus musculus with 3 samples.

Results

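Rpl13a, Hsp90ab1 and Ppia stand for the making and folding of proteins, and each was read here by 1 probe repeated in 20 spots on each of 3 arrays. The members were taken by probe name: 3 of the 60915 probes of the array, and 3 of its 15 probes that carry the RefSeq accession of a reference gene. They were selected on their function and on signal differences between these same arrays, with earlier results known, so all values below are a description. The RNA was that of PMN-MDSCs (polymorphonuclear myeloid-derived suppressor cells), cells of the neutrophil lineage that restrain T cells in hosts with a tumor. The mice were male C57BL/6 animals aged 6 to 8 weeks. 1 array held cells from tumor tissue of tumor-bearing mice, 1 held cells from the spleens of tumor-bearing mice and 1 held cells from the spleens of wild-type mice. All cells had been enriched with an MDSC isolation kit and sorted by FACS for CD11b and Ly6G. The clone that the labels name for Ly6G is generally known as an anti-Gr-1 clone, and such antibodies can bind Ly6C on monocytes too. The kind of tumor, and whether mice were pooled, are not given in the sources used here. Each group is a single array, so differences have neither a test nor a check by replicates, and the number of arrays limits the precision.

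Rpl13a encodes a protein of the large ribosomal subunit, and the mRNAs of such proteins begin with a pyrimidine tract that ties their translation to growth signals. Hsp90ab1 encodes HSP90 beta, the constitutive cytosolic chaperone that helps kinases and steroid receptors reach their mature fold. Ppia encodes cyclophilin A, a cytosolic prolyl isomerase that speeds a slow step of protein folding and is the target of cyclosporin A. All 3 are abundant in most cells and serve as reference genes for quantitative PCR, where they are assumed to be level between samples. Mature neutrophils are known to hold fewer ribosomes and less RNA than the dividing precursors from which they arise.

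The RefSeq table of promoters matched Rpl13a and Ppia, but not Hsp90ab1. The 250 bases before the start of both genes are shown as a description, and a link between these letters and the signals was not tested. Sequences are from RefSeq, build GRCm38.p6: Rpl13a lies on the minus strand (chr7:45128746-45128995) and Ppia on the plus strand (chr11:6415617-6415866). Capitals mark matches, on either strand, to the TATA box (TATAAA), the CCAAT box (CCAAT), the GC box (GGGCGG) and the core of the heat shock element (GAANNTTC).
Rpl13a: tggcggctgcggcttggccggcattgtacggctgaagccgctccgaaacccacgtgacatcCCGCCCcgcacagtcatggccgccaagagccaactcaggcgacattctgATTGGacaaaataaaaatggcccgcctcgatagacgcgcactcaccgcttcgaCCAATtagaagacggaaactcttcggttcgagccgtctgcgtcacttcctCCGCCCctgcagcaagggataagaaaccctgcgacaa
Ppia: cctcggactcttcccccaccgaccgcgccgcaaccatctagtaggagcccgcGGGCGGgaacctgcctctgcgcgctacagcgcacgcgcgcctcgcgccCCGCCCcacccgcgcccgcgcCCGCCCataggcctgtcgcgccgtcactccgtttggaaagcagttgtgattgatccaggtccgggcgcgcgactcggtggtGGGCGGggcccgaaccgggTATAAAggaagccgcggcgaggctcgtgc
The Rpl13a window held 2 CCAAT boxes, starting 140 and 87 bases before the gene, and 2 GC boxes, with no TATA box. The Ppia window held 1 TATA box starting 29 bases before the gene and 4 GC boxes, with no CCAAT box. No marked matches overlapped, and the heat shock core was in neither window. Of 27025 RefSeq promoters of the same length, 13.0% held a TATA box, 34.5% a CCAAT box, 32.9% a GC box and 6.78% the heat shock core. The GC content was 58.8% for Rpl13a and 72.4% for Ppia, beside a median of 52.0% over those promoters. A match describes the letters of the window and does not show that a factor binds there.

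Signals are those of a 1-colour (Cy3) scan, background-subtracted by the scanner software, in signal units. They are not yet scaled between arrays, so gaps between ranges also hold differences in the brightness of whole arrays. How many other probes had separate ranges was not counted. Rpl13a read 13604 at its lowest spot, 15219 at the median and 15987 at its highest spot on the tumor array. On the tumor-bearing spleen array it read 6735, 7192 and 7808 units at the lowest, median and highest of the spots used. On the wild-type spleen array the same 3 values were 87123, 94224 and 101052 units. The 3 arrays thus stood in separate ranges for this ribosomal gene, with wild-type spleen the highest and tumor-bearing spleen the lowest. Coefficients of variation between spots were 4.03%, 3.73% and 3.42%, in the order tumor, tumor-bearing spleen, wild-type spleen.

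Hsp90ab1 kept the same order of arrays. Its lowest, median and highest spots were 36695, 38035 and 39013 units on the tumor array. They were 20566, 23352 and 26375 units on the tumor-bearing spleen array. On the wild-type spleen array they were 230135, 246966 and 258374 units. The ranges of this chaperone gene did not overlap, and how common that is among other probes was not counted. Its spots on the tumor-bearing spleen array were the most uneven of the 9 sets, with a coefficient of variation of 7.08%.

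Ppia differed far less between the wild-type spleen array and the others. Between tumor and tumor-bearing spleen its mean log2 signals were 1.54-fold apart, beside 1.61-fold for Hsp90ab1. The lowest, median and highest spots were 349425, 375927 and 394526 units on the tumor array. On the tumor-bearing spleen array they were 238023, 243520 and 251360 units. On the wild-type spleen array they were 524811, 553548 and 594564 units. The raw ranges again ran from tumor-bearing spleen to wild-type spleen. They did not overlap, and other probes were not counted for this. The median Ppia spot on the wild-type array stood at 71.1% of the scanner's ceiling of 778263 units, against 48.3% on the tumor array and 31.3% on the tumor-bearing spleen array. Hsp90ab1 reached 31.7% of the ceiling and Rpl13a 12.1%, both on the wild-type array. No spot of the 3 arrays was marked as saturated. Whether Ppia signals this near the ceiling still rise in step with RNA was not tested.

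**Figure D1:**
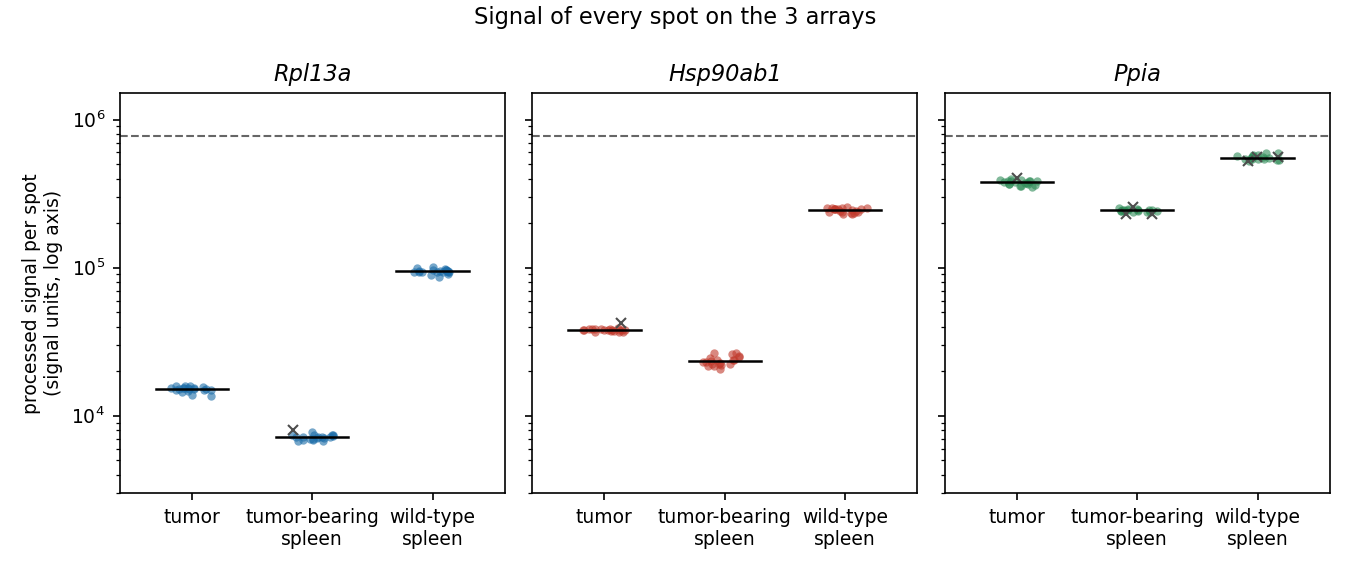
Processed signal of every spot (points, log axis, signal units) of Rpl13a, Hsp90ab1 and Ppia on the 3 arrays, with black lines at the median of the spots used, crosses at spots left out for outlier flags, and a dashed line at the scanner ceiling of 778263 units. Wild-type spleen is the highest array and tumor-bearing spleen the lowest for all 3 genes. The gap from wild-type spleen to the other arrays is wide for Rpl13a and Hsp90ab1 and narrow for Ppia.

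Few of these spots were lost. Of 20 spots each, 1 Rpl13a spot was left out on the tumor-bearing spleen array, 1 Hsp90ab1 spot on the tumor array, as well as 1 Ppia spot on the tumor array and 3 Ppia spots on either spleen array. Every spot used was well above background. Spots of 15 negative probes, 300 per array, had medians of 3.05, 3.21 and 3.70 units. Over the whole array 73.7% to 76.8% of probes were well above background. To compare arrays, log2 signals were set against the 75th percentile of all probes of the same array, which was 524 units for tumor, 509 for tumor-bearing spleen and 698 for wild-type spleen. This scaling took 0.41 (tumor) and 0.46 (tumor-bearing spleen) log2 units off the gap to wild-type spleen. Levels below are log2 units above that percentile, and errors are the SD between spots, which is technical and holds no variation between mice.

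The comparison of tumor with wild-type spleen sets PMN-MDSCs at the tumor against cells of the same label from spleens of mice without one. Both tissue and tumor bearing differ between these arrays, and their parts cannot be told apart. The ribosomal gene and the chaperone gene read lower by nearly the same factor in PMN-MDSCs from the tumor, and the prolyl isomerase hardly differed. Rpl13a had a level of 4.85 ± 0.06 in tumor and 7.08 ± 0.05 in wild-type spleen, a log2 difference of -2.23 ± 0.08, or 4.68-fold lower. Hsp90ab1 had levels of 6.18 ± 0.02 and 8.45 ± 0.05, a difference of -2.27 ± 0.06, or 4.84-fold lower. Both gaps are many times the spread between spots. Ppia had levels of 9.48 ± 0.05 and 9.64 ± 0.05, a difference of -0.15 ± 0.08, and here the scaled spot ranges touched: the highest tumor spot was at 9.56 and the lowest wild-type spot at 9.55.

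Without any scaling the same differences were -2.64 for Rpl13a, -2.69 for Hsp90ab1 and -0.57 for Ppia. Of the 3 genes, 2 were at least 2-fold lower in PMN-MDSCs from the tumor, where 18.3% of the 43421 probes well above background on both arrays were. Among the 4494 bright probes, those at least 4 log2 units above the percentile on average and well above background on both arrays, 24.8% were. A difference as low as that of Hsp90ab1 or lower was found at 6.27% of all probes, and for Rpl13a the share was 6.51%. Ppia lay near the middle of the array, with 43.0% of probes at or below its value. Probes of the array include some named for lincRNA (long intergenic noncoding RNA) loci. Shares over all probes are therefore not ranks among protein-coding genes alone. The median over all probes was 0.02, and over the bright probes -0.26.

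Tumor-bearing spleen against wild-type spleen compares cells from the same organ. The same pair of genes read lower still, and Ppia differed by less than 2-fold after scaling. Rpl13a had a level of 3.81 ± 0.05 in tumor-bearing spleen, at a difference of -3.26 ± 0.07 from wild type, or 9.61-fold lower. Hsp90ab1 had a level of 5.53 ± 0.10, at a difference of -2.92 ± 0.11, or 7.59-fold lower. Ppia had a level of 8.90 ± 0.02, at a difference of -0.73 ± 0.06, or 1.66-fold lower. Its scaled spot ranges on these arrays did not overlap, which was not counted for other probes.

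Before scaling the Ppia difference was -1.19, so for this gene the side of the 2-fold limit depended on the scaling. The unscaled differences of Rpl13a and Hsp90ab1 were -3.72 and -3.38. Again 2 of the 3 genes were at least 2-fold lower, beside 21.9% of 42323 probes and 32.8% of the bright ones. At or below the value of Rpl13a lay 4.65% of all probes, at or below that of Hsp90ab1 6.04% and at or below that of Ppia 25.8%. The median was 0.29 over all probes but -0.17 over the bright ones. Which side held more probes past 2-fold depended on the scaling: 11604 higher and 9257 lower here, against 9725 and 10208 when arrays were scaled to the median of commonly detected probes. This comparison uses the same wild-type array as the one before, and a deviation of that array would enter both.

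Within tumor-bearing mice, PMN-MDSCs from the tumor were set against those from the spleen, without the wild-type array. All 3 genes read higher in the tumor, by modest factors. Rpl13a differed by 1.04 ± 0.08, or 2.05-fold, just past the 2-fold limit. Hsp90ab1 differed by 0.65 ± 0.10, or 1.57-fold, and Ppia by 0.58 ± 0.06, or 1.49-fold. That is 1 of 3 genes at least 2-fold higher, beside 14.2% of 42843 probes and 13.2% of the bright ones. These differences are ordinary for the array: 86.6% of probes lay at or below the value of Rpl13a, 76.1% at or below that of Hsp90ab1 and 73.9% at or below that of Ppia.

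**Figure D2:**
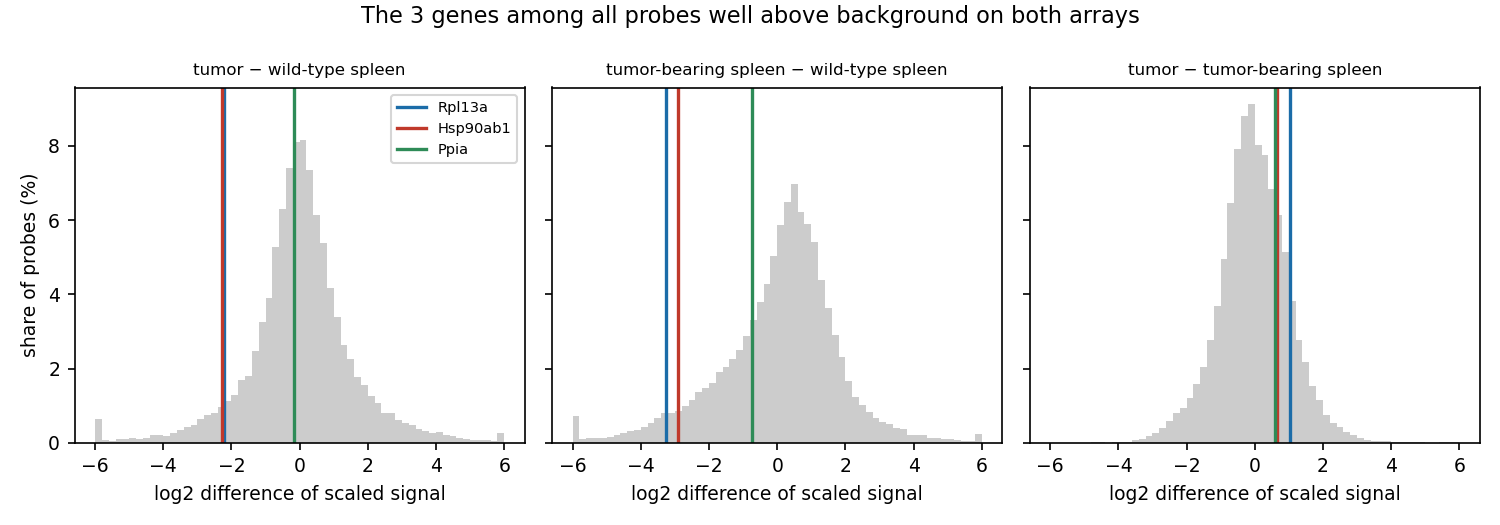
Histograms of log2 differences between arrays for all probes well above background on both (grey, share of probes in percent, differences beyond 6 in the outermost bars), with coloured lines at the 3 genes. Rpl13a and Hsp90ab1 stand in the left tail of both comparisons with wild-type spleen, Ppia lies closer to the centre, and all 3 lie to the right of the centre for tumor against tumor-bearing spleen.

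Spots at the same place of the slide were also compared one by one. For Rpl13a and Hsp90ab1 against wild-type spleen the separate ranges above had already fixed the signs, so the sizes alone add to them. Rpl13a was lower in tumor than in wild-type spleen at 20 of 20 places, by -2.38 to -2.13, and lower in tumor-bearing spleen at 19 of 19, by -3.40 to -3.14. Hsp90ab1 was lower at 19 of 19 places, by -2.35 to -2.20, and at 20 of 20, by -3.14 to -2.78. The small Ppia difference between tumor and wild-type spleen, after scaling, had 1 sign at 16 of 16 places, from -0.23 to -0.05. Spots in the upper and in the lower rows of the slide, split at its middle, gave, in that order, -2.26 and -2.20 for Rpl13a in tumor, -2.31 and -2.23 for Hsp90ab1 and -0.15 and -0.13 for Ppia. Places share the array and its RNA, so they are repeats of 1 hybridisation and not of a group.

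How unequally the 3 genes differed can be read without any constant scaling factor, from the difference of 1 gene minus that of another. In tumor against wild-type spleen, Rpl13a lay -2.07 ± 0.11 below Ppia and Hsp90ab1 -2.12 ± 0.09 below Ppia. In tumor-bearing spleen these values were -2.53 ± 0.09 and -2.19 ± 0.13. Set against Ppia on these arrays, the ribosomal gene thus read 4.21-fold (tumor) and 5.78-fold (tumor-bearing spleen) lower than in wild-type spleen. The chaperone gene read 4.35-fold and 4.56-fold lower. After quantile normalization these factors were 3.27 and 4.05 for Rpl13a and 3.52 and 3.25 for Hsp90ab1. What quantitative PCR scaled on Ppia would give was not tested.

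Rpl13a and Hsp90ab1 hardly parted from each other in the tumor, where the difference of Rpl13a minus that of Hsp90ab1 was 0.05 ± 0.10, less than the spread between spots. In tumor-bearing spleen it was -0.34 ± 0.13, with the ribosomal gene the lower. Between tumor and tumor-bearing spleen it was 0.39 ± 0.13. Hsp90ab1 and Ppia could not be told apart in that last comparison, at 0.07 ± 0.12, and the sign turned to -0.11 after quantile normalization.

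The same reading was made against each of the 12 other reference genes. Against wild-type spleen, Rpl13a and Hsp90ab1 lay below all 12 in both comparisons. In tumor the gap ran from -4.18 (against G6pd2) to -0.97 (against Gusb, the lysosomal beta-glucuronidase) for Rpl13a and from -4.23 to -1.02, against the same genes, for Hsp90ab1. In tumor-bearing spleen it ran from -6.56 (against Gk, the glycerol kinase) to -0.88 (against Gusb) for Rpl13a and from -6.22 to -0.54 for Hsp90ab1. Ppia lay among the others instead: below 5 and above 7 of them in tumor, and below 8 and above 4 in tumor-bearing spleen. Ordered from the lowest difference, Hsp90ab1 and Rpl13a took places 1 and 2 of the 15 genes in tumor and places 2 and 1 in tumor-bearing spleen, while Ppia took places 10 and 7.

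**Figure D3:**
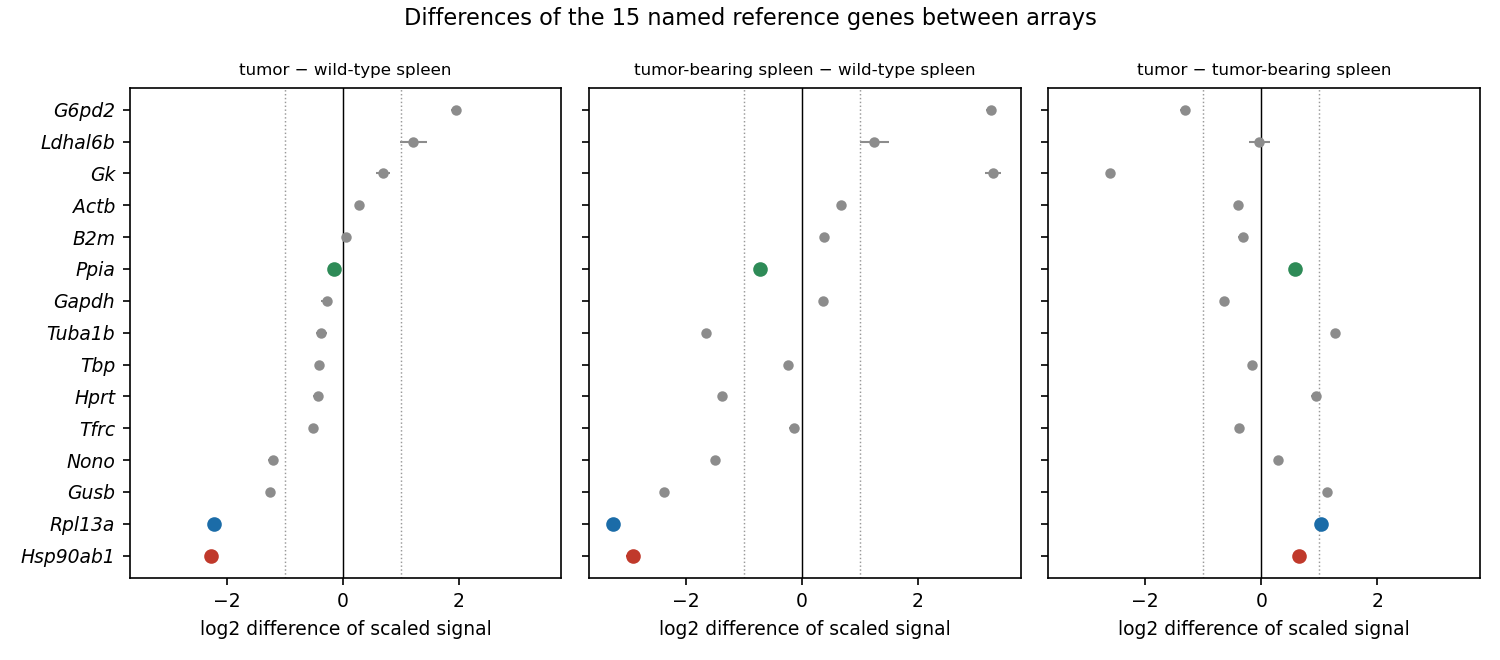
Log2 differences of the 15 named reference genes in the 3 comparisons (points, bars show the SD between spots combined over both arrays, dotted lines the 2-fold limit), with Rpl13a in blue, Hsp90ab1 in red and Ppia in green. The blue and red points are the lowest 2 in both comparisons with wild-type spleen, at -2.23 and -2.27 in tumor and -3.26 and -2.92 in tumor-bearing spleen.

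Likeness of pattern was measured as the distance between levels over the 3 arrays, each gene centred on its own mean. Rpl13a was nearest to Hsp90ab1, at 0.30 log2 units, followed by Gusb at 0.76. Hsp90ab1 was nearest to Rpl13a and then to Gusb, at 0.72. Gusb differed from wild-type spleen by -1.25 ± 0.07 in tumor and -2.39 ± 0.07 in tumor-bearing spleen. For Ppia the nearest gene was Hprt, a purine salvage enzyme, at 0.46, followed by Tbp, the TATA-binding protein, at 0.54. Hprt differed from wild-type spleen by -0.43 ± 0.08 in tumor and -1.37 ± 0.08 in tumor-bearing spleen. After quantile normalization the nearest gene was the same for all 3, but the next after Hprt for Ppia was Nono in place of Tbp. A distance over 3 arrays describes these arrays alone.

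Other genes of these pathways could hardly be read, since the files name few probes. Of 24 genes listed for translation only Rpl13a was named, of 22 chaperone genes only Hsp90ab1, and of 11 prolyl isomerase genes only Ppia. The arrays therefore do not show here whether other ribosomal or chaperone genes moved with these 2. Of the housekeeping list, 9 genes besides the 3 members were measured. Their median difference from wild-type spleen was -0.41 in tumor, with 2 at least 2-fold lower and 0 higher. All probes gave 18.3% lower and 19.6% higher. In tumor-bearing spleen the median was -0.24, with 4 lower and 0 higher, beside 21.9% and 27.4% of all probes. The 12 other reference genes were less one-sided: 2 lower and 2 higher in tumor (median -0.32), and 4 lower and 3 higher in tumor-bearing spleen (median 0.11). Between tumor and tumor-bearing spleen the median of the 9 genes was -0.17, with 2 higher and 0 lower, beside 14.2% and 14.7% of all probes. Of the 12 genes, 2 were higher and 2 lower there.

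What the probes detect has limits of its own. The RefSeq table lists 60 pseudogenes that carry the name of Ppia, 1 that carries that of Rpl13a and 0 that carry that of Hsp90ab1. The files used here give no probe sequence, so reading of such copies by the probes is uncertain. Rpl13a also holds 4 small nucleolar RNA genes inside it (Snord32a, Snord33, Snord34 and Snord35a), and which part of the gene the probe reads is not given either.

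Control probes at opposite ends of a transcript, a measure of RNA length, differed unevenly at 1 of 2 genes. For the glycolytic kinase gene Pgk1, tumor minus wild-type spleen was -1.98 ± 0.08 at the 5′ end and -0.85 ± 0.04 at the 3′ end. Tumor-bearing spleen minus wild-type spleen was -1.93 ± 0.10 at the 5′ end and -0.56 ± 0.06 at the 3′ end. For Gapdh the tumor values were -0.60 ± 0.07 (5′) and -0.55 ± 0.06 (3′), and those of tumor-bearing spleen 0.13 ± 0.08 (5′) and 0.30 ± 0.06 (3′). The part of RNA length in the values of Rpl13a and Hsp90ab1 was not tested. None of 29 marker genes of neutrophils or other cell types was named by a probe, so the cell type of the label was not checked, and fewer cells of a type cannot be told apart from less RNA per cell.

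**Figure D4:**
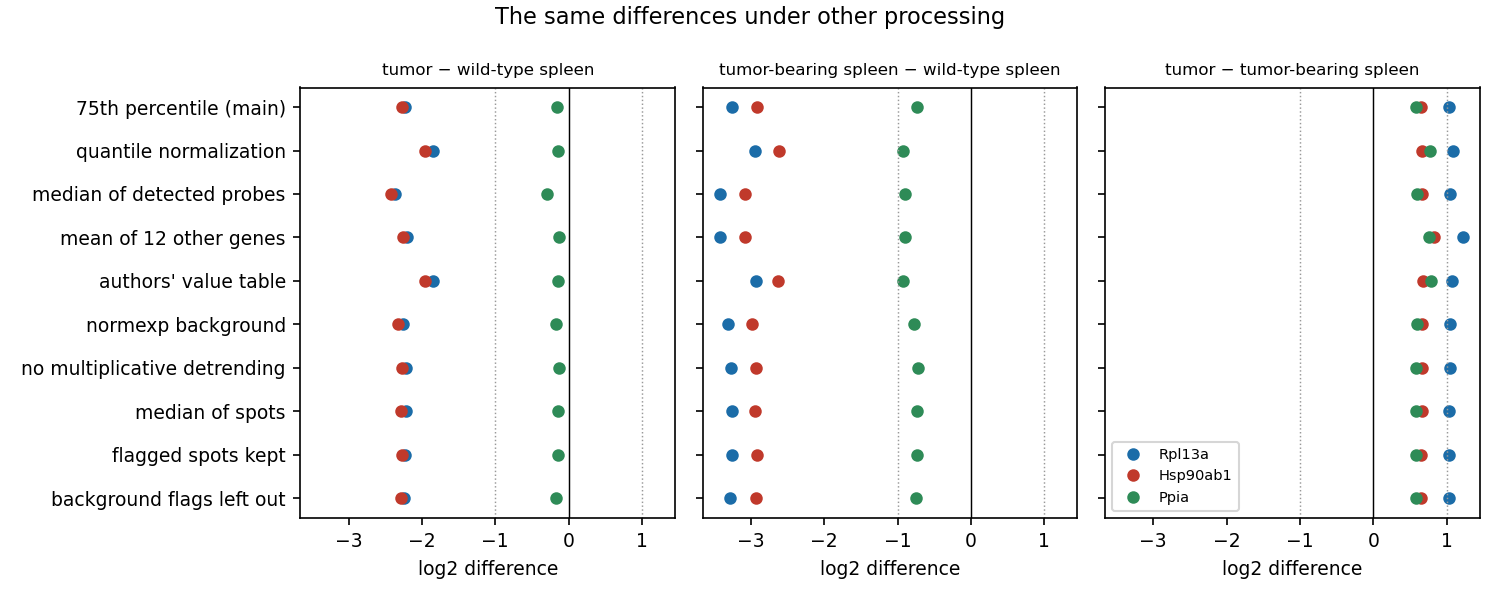
Log2 differences of the 3 genes in the 3 comparisons under the processing used here (top line) and 9 other settings (points, dotted lines show the 2-fold limit). Rpl13a and Hsp90ab1 stay below the limit against wild-type spleen under each, at -1.85 or lower, and Ppia stays within it.

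Shifts of these values beyond the SD between spots came only from other ways of scaling and from the authors' value table. Not every scaling shifted them more than other ways of reading the spots. For Rpl13a in tumor, scaling to the 12 other reference genes gave -2.21 and normexp correction -2.26. In tumor against wild-type spleen Rpl13a ran from -2.37 to -1.85 over 9 alternatives and Hsp90ab1 from -2.42 to -1.95. In tumor-bearing spleen Rpl13a ran from -3.43 to -2.93, Hsp90ab1 from -3.09 to -2.62 and Ppia from -0.93 to -0.72. In the authors' deposited value table Rpl13a differed by -1.85 and -2.93, Hsp90ab1 by -1.95 and -2.63 and Ppia by -0.14 and -0.93, in tumor and tumor-bearing spleen.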

How the data were processed

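PMN-MDSC RNA from 3 groups was read on 1 array each. Per the file headers, the deposited signals are intensity values from Agilent Feature Extraction 11.0.1.1, with background subtraction and spatial detrending inside an array and no scaling across arrays. The headers record a further, multiplicative detrending for tumor and wild-type spleen but not for tumor-bearing spleen, so the deposited signals were not all made alike. The authors' deposited value table gives log2 values for these samples, with its scaling not stated.

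Control spots, negative probes and 89 outlier-flagged spots were dropped. Log2 processed signals were averaged per probe, and the 75th percentile of 60915 probes was subtracted. Background counts used probes with most spots well above background on both arrays, at a descriptive limit of 2-fold. Single arrays allow no test, and no p-value is given. The steps were tested on simulated arrays, noisy copies of the wild-type array with few changed probes, as many raised as lowered. That setting does not cover the choice of scaling where many probes differ, as on these arrays. Accessions were matched to RefSeq symbols without versions (15 of 15). Members and lists were chosen with earlier results of these data known. Named genes are the members, named genes of the pathway lists, the 2 nearest genes to each member, and others as references or RNA end probes. Alternatives covered scaling, background correction (normexp, offset 50), detrending, spot summary, flags, size limits and the filter on dim probes. Python 3.11.15, numpy 2.4.6, pandas 2.3.3, matplotlib 3.10.9, R 4.3.3 and limma 3.58.1 were used.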

Additional observations from a re-analysis of the deposited data

How the results depend on the processing

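Over 126 recomputed values of the 3 genes and their pairs, 90 stayed within the SD between spots, 34 moved beyond it and 2 changed sign. Quantile normalization and the authors' value table gave nearly the same values, and the cause of the shifts below was not tested. For tumor against wild-type spleen they gave -1.85 and -1.85 for Rpl13a, -1.96 and -1.95 for Hsp90ab1, -1.71 and -1.71 for Rpl13a minus Ppia, and -1.81 and -1.81 for Hsp90ab1 minus Ppia. For tumor-bearing spleen they gave -2.94 and -2.93 for Rpl13a, -2.62 and -2.63 for Hsp90ab1, -0.92 and -0.93 for Ppia, -2.02 and -2.01 for Rpl13a minus Ppia, and -1.70 and -1.70 for Hsp90ab1 minus Ppia. Between tumor and tumor-bearing spleen they gave 0.78 and 0.79 for Ppia, 0.31 and 0.29 for Rpl13a minus Ppia, and -0.11 and -0.11, with the sign turned, for Hsp90ab1 minus Ppia.

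With the median of commonly detected probes as the scale, the values were -2.37, -2.42 and -0.30 for Rpl13a, Hsp90ab1 and Ppia in tumor, and -3.43, -3.08 and -0.89 in tumor-bearing spleen. Scaling to the mean of the 12 other reference genes gave -3.43, -3.09 and -0.89 in tumor-bearing spleen, and 1.22, 0.83 and 0.76 for tumor against tumor-bearing spleen. Normexp correction, signals without multiplicative detrending, medians of spots, flagged spots kept and, added after seeing the data, spots with background flags left out moved no value beyond the SD between spots.

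The share of probes past the limit in either direction, higher or lower, was 37.8% at 2-fold for tumor against wild-type spleen. It was 57.4% at 1.5-fold and 15.7% at 4-fold. For tumor-bearing spleen against wild-type spleen the shares were 49.3% at 2-fold, 68.4% at 1.5-fold and 20.4% at 4-fold. For tumor against tumor-bearing spleen they were 28.9%, 52.6% and 6.17%, in the same order. No paired analysis was possible because each group holds 1 array. For the same reason no replicate could be left out.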
